A study of Homo sapiens with 4 samples.

Results

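The cytosolic ribosomal protein genes were followed in 769-P cells, derived from a human clear cell carcinoma of the kidney and stably transfected with an inducible short hairpin RNA that targets USP35, an enzyme that removes ubiquitin from proteins. The 88 genes were taken by name and biotype, 53 with large-subunit names and 35 with small-subunit names, out of 58735 genes in all and 19951 protein-coding ones. The rule takes protein-coding genes whose names begin with RPL, RPS or RPLP and a number, plus RPSA, and leaves out names with a K or a hyphen. Transcript levels came from RNA sequencing of 2 libraries of cells in which doxycycline (1 µg/ml, 4 days) had induced the hairpin, and 2 untreated control libraries. All 4 carried the hairpin construct, whose promoter is not given in the labels, and no library given doxycycline without a hairpin was analysed here. The labels do not state that the replicates came from separate cultures. The p-values therefore reflect the library-to-library spread alone, possibly a technical one. The question is how transcript levels differ once the hairpin is switched on.

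A cytosolic ribosome joins a small subunit, which reads the mRNA, to a large subunit, which links amino acids. Each subunit holds its ribosomal RNA and a fixed set of proteins, nearly all in a single copy, so their mRNAs are made in large and broadly matched amounts. Many of these mRNAs begin with a 5′ terminal oligopyrimidine (TOP) tract, a C followed by a run of pyrimidines, through which mTORC1 and the RNA-binding protein LARP1 control their translation. Free RPL5 and RPL11 bind MDM2, and so link disturbed ribosome assembly to p53.

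The 5′ ends of the genes are shown because the TOP tract is the sequence the family is known for. RefSeq (GRCh38.p14) gave a start sequence for 70 of the 88 genes. In 44 of these 70 (62.9%) the annotated start was a C followed by at least 4 further pyrimidines, against 696 of 14896 protein-coding genes (4.67%), the ribosomal protein genes included. The share was 60.5% for large-subunit names and 66.7% for small-subunit names. With such a run allowed to begin anywhere within 10 bases on either side of the start, it was 82.9%, against 33.9%. The search read the transcript strand only, and an annotated start is not the start used in these cells. The lines below give 10 bases before the start and 20 from it on, in transcript direction, with the unbroken pyrimidine run from the start in capitals. RPL39 had the longest run of the 70. RPL35, RPS21 and RPS24 are genes at the ends of the range of differences described further on.
RPL39: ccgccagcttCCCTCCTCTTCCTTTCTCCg
RPL35: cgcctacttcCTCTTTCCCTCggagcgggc
RPS21: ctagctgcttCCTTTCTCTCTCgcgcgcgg
RPS24: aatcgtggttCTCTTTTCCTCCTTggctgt
These lie on GRCh38.p14 at chrX:119791611-119791640 (minus strand), chr9:124861938-124861967 (minus), chr20:62387093-62387122 (plus) and chr10:78033853-78033882 (plus).

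Some parent genes and their paralogs differed at this site, and the pairs below are among those whose levels are compared later.
RPL22L1: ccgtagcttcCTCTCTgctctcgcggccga
RPL22: cgctcacctcCCTTTCTaactccgctgccg
RPL26L1: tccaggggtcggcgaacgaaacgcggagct
RPL26: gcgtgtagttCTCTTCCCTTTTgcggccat
RPS27L: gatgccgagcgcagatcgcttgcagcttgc
RPS27: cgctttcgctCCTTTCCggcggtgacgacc
RPL22L1 (chr3:170870176-170870205, minus) and RPL22 (chr1:6199576-6199605, minus) both had a run. RPL26L1 (chr5:172958719-172958748, plus) and RPS27L (chr15:63157458-63157487, minus) had none, while RPL26 (chr17:8383174-8383203, minus) and RPS27 (chr1:153990752-153990781, plus) did. RPL7L1 and RPS4X, the X-linked form of the small-subunit protein eS4, also had no pyrimidine at the annotated start.

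USP35 itself (ENSG00000118369, GRCh38 chromosome 11, 78188812 to 78214711, plus strand) stood at 2.11 and 2.54 FPKM with doxycycline and 3.31 and 4.19 FPKM in the controls (log2 difference -0.51, standard error 0.20, limma adjusted p = 0.256). It was lower in both doxycycline libraries but did not pass the test. FPKM means fragments per kilobase, here of merged exon length, scaled to the size of the library. Libraries held 17481827 and 18764546 recovered reads with doxycycline and 16319640 and 17244546 in the controls, of which 739565 to 910550 fell on the 88 genes. The mitochondrial genome took 7.44% and 14.6% of reads with doxycycline and 8.21% and 8.5% in the controls. Of 12 kidney and clear cell carcinoma markers, 7 had a mean of at least 1 FPKM, PAX8, PAX2 and VIM among them. CA9 and NDUFA4L2 did not reach it. The 12 summed to 459.5 and 444.7 FPKM with doxycycline and 607.9 and 499.3 FPKM in the controls. Most of each sum was VIM, at 350.7 and 328.3 FPKM with doxycycline and 502.1 and 380.4 FPKM in the controls. Of 6 fibroblast, 5 endothelial and 7 leukocyte markers, 0 reached a mean of 1 FPKM. The sums of each of these lists lay under 0.7 FPKM in every library.

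Ribosomal protein mRNAs were among the most abundant in the cells. The median gene of the family stood at 139.1 and 116.8 FPKM with doxycycline and 176.3 and 142.9 FPKM in the controls, at or above at least 98.2% of the 12029 genes tested in each library. The test took genes whose mean over the 4 libraries reached 1 FPKM. Of the 88 genes, 83 did so, 51 with large-subunit and 32 with small-subunit names. The 5 that did not were RPL3L and RPL10L, tissue-restricted paralogs, the Y-linked RPS4Y1 and RPS4Y2, and RPS10. Of the 83, 53 had a mean above 100 FPKM and 11 a mean below 30 FPKM.

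In the small subunit the highest levels belonged to RPS12 and RPS2. RPS12 stood at 921 and 694.6 FPKM with doxycycline and 951.6 and 712.7 FPKM in the controls. RPS2 stood at 631.2 and 344.8 FPKM with doxycycline and 843.3 and 676.2 FPKM in the controls. In the large subunit they belonged to RPL8, a core protein close to the catalytic centre, and to RPL13A, a subunit also known as a translational silencer in the interferon response. RPL13A stood at 688.2 and 578.7 FPKM with doxycycline and 692.9 and 560.6 FPKM in the controls, so its groups overlapped. The lowest kept were RPL36A (1.37 and 0.84 FPKM with doxycycline, 1.08 and 1.07 FPKM in the controls) and RPL39L in the large subunit. In the small subunit RPS29 was among the lowest, at 6.54 and 5.35 FPKM with doxycycline and 8.18 and 6.12 FPKM in the controls.

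**Figure D1:**
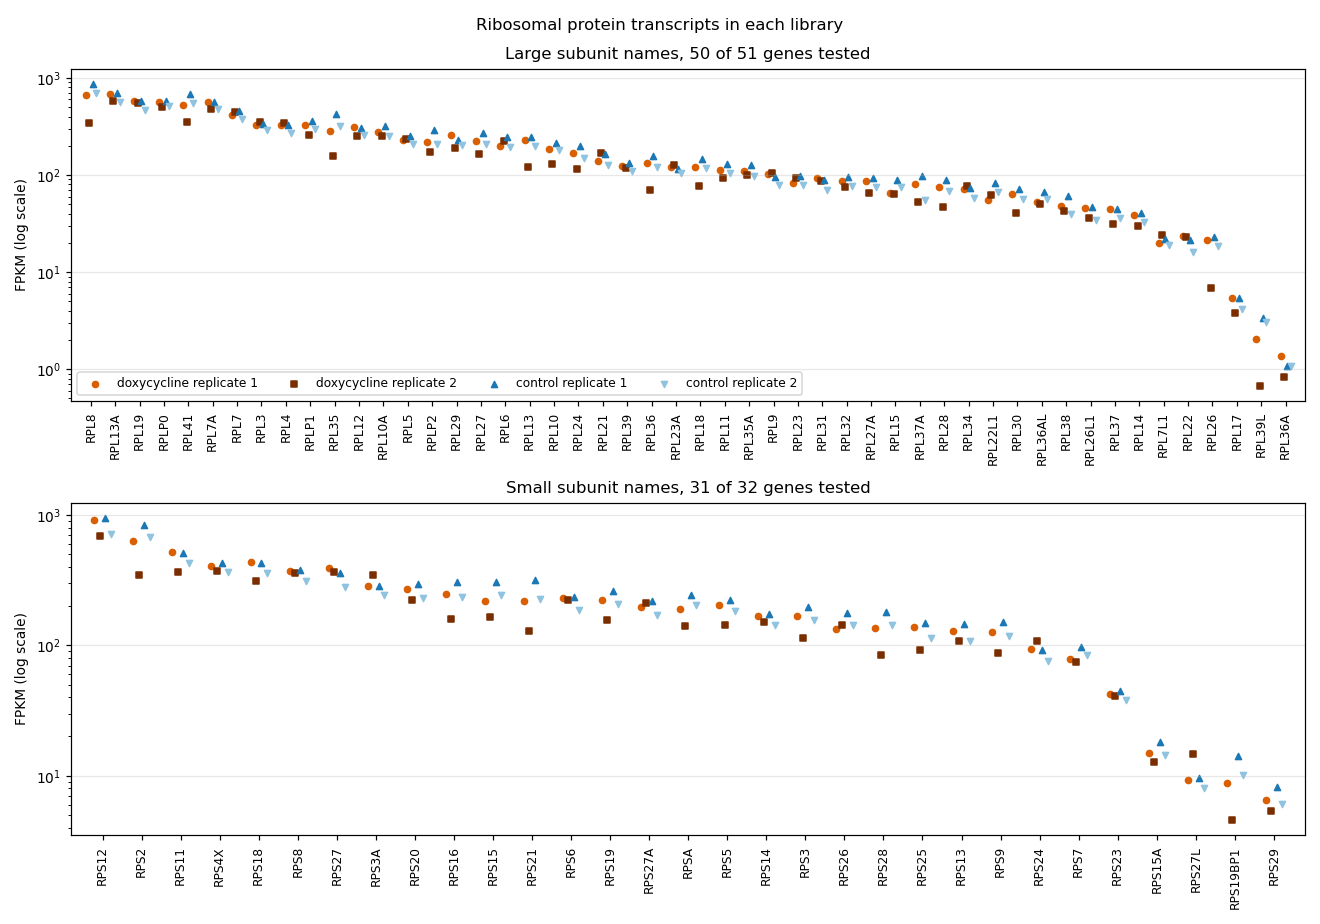
FPKM (log axis) of 50 of the 51 large-subunit and 31 of the 32 small-subunit names tested, in each of the 4 libraries, ordered by the mean over libraries. Most genes lie above 30 FPKM, and a tail lies below it, among them RPL17, RPL36A and RPS29.

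The order of levels depends on the length used. The files divide by the merged length of all annotated exons, which was 3.1 times the length of the principal coding mRNA in GENCODE 29 for the median gene and at least 5 times for 19 of the 83. RPS29 is divided by 9845 bases, while its principal mRNA has 296, a ratio of 33.26. Per kilobase of principal mRNA RPS29 had a level of 217.8 in place of 6.55, and moved to place 61 of 83, against place 79 by FPKM. RPS12, first by FPKM, was at place 22, and RPLP0, the stalk base protein, was first. This scale assigns all reads to the principal mRNA, which is long for some genes, as for RPL37 (7686 bases, 291 of them coding). Across the 83 genes both scales had a Spearman correlation of 0.86, as a description, since they share the same reads. Some low values belong to mRNAs that other annotated genes share. The share of the principal mRNA covered by another gene on the same strand was 91% for RPL17, 77.6% for RPL36A and 77% for RPS10. RPS10 stood at 0.97 and 0.63 FPKM with doxycycline and 0.83 and 0.88 FPKM in the controls. The readthrough genes that cover RPL17, RPL36A and RPS10 held at most 4 reads in any library. The files also list 1132 named pseudogenes of 76 of the family's genes, 91 of them for RPL23A. Their reads came to 3.84% and 3.67% of the family's reads with doxycycline and 4.06% and 4.05% in the controls. Levels of genes with such near-identical or overlapping copies are uncertain.

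No ribosomal protein gene passed the test between doxycycline and control. The family's median difference between the group means, -0.10, was smaller in size than the 0.31 between the single control libraries. These are unlike measures, since a mean of 2 libraries varies less than a single library. With limma-trend on log2(FPKM + 1) and Benjamini-Hochberg adjustment over all 12029 genes, the lowest adjusted p among the 83 was 0.223, so 0 were called at 0.05, where 0 of all genes tested were called (0%). At an unadjusted p under 0.05 there were 0 higher and 2 lower, RPL39L and RPS19BP1, against 6.47% higher and 11.9% lower over all genes tested, or 18.3% in either direction. On recovered reads limma-voom also called 0 members, with either library size. Over all genes it called 0 with library totals, and 0.141% as higher and 0.865% as lower (17 and 104 genes) with median-of-ratios sizes. The median log2 difference, doxycycline minus control, was -0.10 over large-subunit names and -0.20 over small-subunit names, beside -0.03 over all genes tested. With mitochondrially encoded genes left out of the scaling and the test, the subunit medians were -0.05 and -0.15. Quantile normalization turned the large-subunit median to 0.05, and leaving out control replicate 1 turned it to 0.06. Leaving out doxycycline replicate 2 turned the small-subunit median to 0.03. The differences of single members ran from -0.90 (RPL39L) to 0.37 (RPS27L), with an SD of 0.28 among the 83 and 0.50 among all genes tested.

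The groups overlapped for most members. In 6 of the 83 the doxycycline libraries both exceeded the controls and in 15 both lay below them, together 25.3%, where the share over all genes tested was 24.3% above, 28.9% below and 53.2% together. Whether this share differs from that of other genes was not tested. By subunit, 4 lay above and 7 below in the large subunit, and 2 above and 8 below in the small subunit.

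What the members did share was the difference between the controls. Control replicate 1 exceeded control replicate 2 for 83 of 83 members, with a median of 0.31 on the log2 scale, where 58.5% of all genes tested did so with a median of 0.05. Among the 75 mitochondrial ribosomal protein genes tested 73 did, with a median of 0.26, and among 216 other nuclear protein-coding genes averaging 100 FPKM or more 187 did, with a median of 0.21. The share of summed FPKM outside the mitochondrial genome shows the same order of libraries. It was 8.33% and 7.07% with doxycycline and 8.39% and 7.46% in the controls, so doxycycline replicate 1 lay near control replicate 1 and doxycycline replicate 2 below control replicate 2. With mitochondrial transcripts in the sum it was 6.18% and 3.96% with doxycycline and 6.04% and 5.24% in the controls. Summed large-subunit over small-subunit FPKM stayed between 1.36 and 1.41 in the 4 libraries. In these bulk libraries fewer cells of a state and less RNA per cell cannot be told apart.

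The doxycycline libraries parted from each other. Relative to the mean of the controls, doxycycline replicate 1 had a median log2 difference of -0.002 over large-subunit and 0.03 over small-subunit names, and doxycycline replicate 2 had -0.20 and -0.32. Doxycycline replicate 2 was the lowest library for 50 of the 83 (60.2%, against 35.9% of all genes tested), and control replicate 1 the highest for 63 (75.9%, against 30.6%). With doxycycline replicate 1 left out, so that the lone doxycycline library is assumed to vary like the controls, 16 members had an adjusted p under 0.05 as lower and 1, RPS27L, as higher (limma). That is 19.3% and 1.2% of the 83, against 19.9% and 12.9% of all genes tested. With doxycycline replicate 2 left out it was 0, against 8.39% lower and 4.95% higher.

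**Figure D2:**
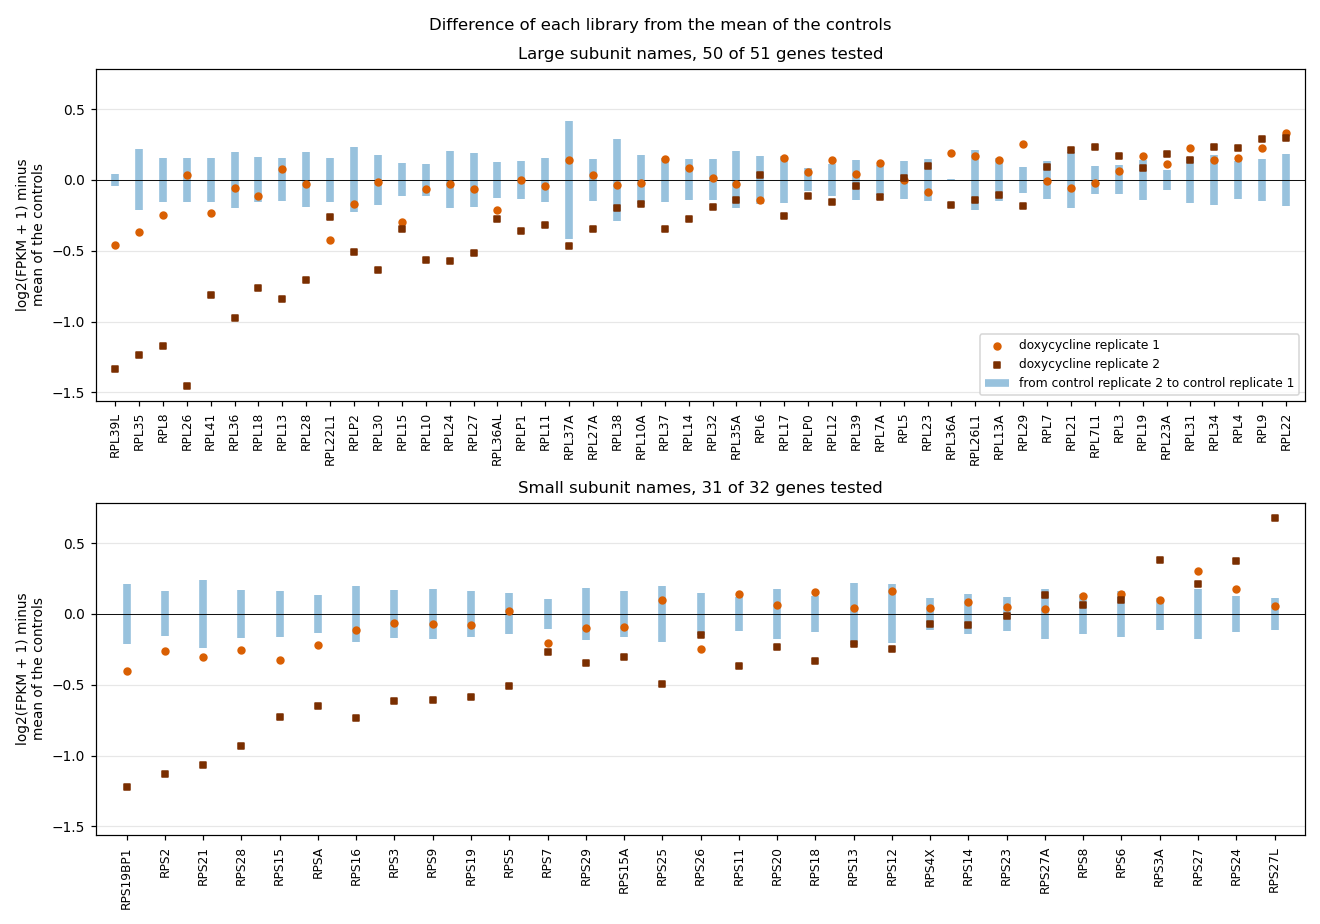
Difference of each doxycycline library from the mean of the controls on the log2(FPKM + 1) scale, for the same 50 and 31 genes, with a bar that spans the controls. Doxycycline replicate 1 mostly lies inside the bars, while doxycycline replicate 2 falls below them on the left, as for RPL35, RPL8 and RPS2, and above them for RPS27L.

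Among large-subunit proteins the lowest differences belonged to RPL39L, RPL35 and RPL8. RPL39L, a paralog of the exit tunnel protein RPL39 best known from testis, stood at 2.06 and 0.67 FPKM with doxycycline and 3.33 and 3.09 FPKM in the controls. These values rest on 41 and 13 reads with doxycycline and 56 and 57 in the controls, the groups do not overlap, and the difference was -0.90 in log2 (standard error 0.31, limma adjusted p = 0.223). RPL35 (ENSG00000136942, GRCh38 chromosome 9, 124857880 to 124861981, minus strand), a protein at the rim of the exit tunnel, stood at 285.3 and 155.8 FPKM with doxycycline and 427.3 and 316.6 FPKM in the controls. Both doxycycline libraries were lower than both controls, but doxycycline replicate 1 lay closer to control replicate 2 than the controls lay to each other. Its means were 220.5 ± 91.6 and 372 ± 78.3 FPKM (SD, n = 2 each), and its difference was -0.80 in log2 (standard error 0.36, limma adjusted p = 0.307). RPL8 stood at 659.9 and 346.5 FPKM with doxycycline and 871.7 and 705 FPKM in the controls (difference -0.71, limma adjusted p = 0.362). RPL41, the smallest protein of the ribosome, was likewise separated, at 526.3 and 352.2 FPKM with doxycycline and 689.2 and 556.9 FPKM in the controls. It is named for its separation, after its values were seen.

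At the other end of the large subunit stood RPL22, RPL9 and RPL4. RPL22, an RNA-binding subunit that mice can live without, stood at 23.7 and 23.1 FPKM with doxycycline and 21.3 and 16.2 FPKM in the controls (difference 0.32, standard error 0.215, limma adjusted p = 0.467). RPL9 stood at 101.3 and 105.9 FPKM with doxycycline and 95.8 and 78.1 FPKM in the controls (difference 0.26). RPL4, whose loop reaches into the exit tunnel, stood at 328.9 and 346.3 FPKM with doxycycline and 324.7 and 270 FPKM in the controls (difference 0.19). For all 3 the groups did not overlap, and the gap to control replicate 1 was smaller than that between the controls.

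Among small-subunit names the lowest differences belonged to RPS19BP1, RPS2 and RPS21. RPS19BP1 matches the rule by name but encodes a protein that binds RPS19 and is known as an activator of SIRT1, not a subunit. It stood at 8.79 and 4.56 FPKM with doxycycline and 14.0 and 10.2 FPKM in the controls (difference -0.81, standard error 0.32, limma adjusted p = 0.259). The difference of RPS2, a protein of the mRNA entry channel, was -0.69 (limma adjusted p = 0.36). RPS21 stood at 217.6 and 127.9 FPKM with doxycycline and 317.9 and 228.2 FPKM in the controls (difference -0.69, limma adjusted p = 0.343). In all 3 doxycycline replicate 2 lay far below doxycycline replicate 1. Without the names that are no subunit or are paralogs, the medians were -0.09 over 46 large-subunit and -0.20 over 30 small-subunit genes.

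The highest small-subunit differences belonged to RPS27L, RPS24 and RPS27. RPS27L, a paralog of RPS27 known as a p53 target, stood at 9.24 and 14.8 FPKM with doxycycline and 9.68 and 8.10 FPKM in the controls. Its groups overlap, and doxycycline replicate 2 alone stands out (difference 0.37, standard error 0.26, limma adjusted p = 0.483). RPS24, mutated in some families with Diamond-Blackfan anaemia, stood at 94.2 and 108.5 FPKM with doxycycline and 91.3 and 76.1 FPKM in the controls (difference 0.28). RPS27 stood at 390.5 and 367.4 FPKM with doxycycline and 358.5 and 280.2 FPKM in the controls (difference 0.26).

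Of 9 members listed for a role outside the ribosome or in disease, RPL13A among them, 8 overlapped between the groups, where 53.2% of all genes tested did not overlap. The list leaves out other members with such roles, some of them separated, as RPL22 was. RPL5 stood at 231.3 and 233.9 FPKM with doxycycline and 254.6 and 210.7 FPKM in the controls, so both doxycycline libraries lay between the controls. RPL11, its partner in binding MDM2, stood at 113.7 and 93.5 FPKM with doxycycline and 130.4 and 104.9 FPKM in the controls. RPS6, the subunit phosphorylated by S6 kinase, stood at 230.4 and 223.4 FPKM with doxycycline and 233.8 and 186.3 FPKM in the controls. RPS14 and RPS19, whose loss underlies the anaemia of 5q deletion and Diamond-Blackfan anaemia, stood at 167.9 and 149.7 FPKM and at 221.8 and 155.1 FPKM with doxycycline, and at 174.7 and 143.3 FPKM and at 261.8 and 208.6 FPKM in the controls. RPS3, which also acts in DNA repair, stood at 167.4 and 114 FPKM with doxycycline and 196.9 and 155.6 FPKM in the controls. RPS27A, made as a fusion with ubiquitin, stood at 197.2 and 211.3 FPKM with doxycycline and 217.5 and 170.4 FPKM in the controls. RPSA, also known as the laminin receptor, was the member of the list whose groups did not overlap, at 190.3 and 141 FPKM with doxycycline and 243.8 and 202.4 FPKM in the controls (difference -0.44, limma adjusted p = 0.423).

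Paralog pairs give values that do not depend on the overall scaling of a library. A trend with GC content within a library does not cancel in them. RPL22L1 made up 69.9% and 72.8% of the FPKM of RPL22L1 and RPL22 with doxycycline and 79.6% and 80.4% in the controls, so the groups did not overlap and lay farther apart than the replicates of either. Of single genes tested 53.2% did not overlap either, and how often shares of other gene pairs separate was not computed. RPL22L1 itself stood at 55.1 and 61.8 FPKM with doxycycline and 83.1 and 66.6 FPKM in the controls (limma adjusted p = 0.458). On recovered reads the shares were 53.6% and 57.1% with doxycycline and 66% and 67.1% in the controls. RPL22 has 22 named pseudogenes, and whether reads lost to them affect the share was not tested. With 2 libraries a group the smallest two-sided p of an exact permutation test is 0.333, so no p is given.

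The other pairs parted less evenly. RPL39L made up 1.63% and 0.57% of its pair with doxycycline and 2.44% and 2.75% in the controls. RPL26L1 made up 68% and 84% of its pair with doxycycline and 66.8% and 65% in the controls. The parent RPL26 stood at 21.3 and 6.93 FPKM with doxycycline and 23.2 and 18.6 FPKM in the controls, and 59% of its principal mRNA is covered by another annotated gene. RPS27L made up 2.31% and 3.87% of its pair with doxycycline and 2.63% and 2.81% in the controls, and RPL7L1 4.62% and 5.17% with doxycycline and 4.57% and 4.77% in the controls. GC content was 41.9% for RPS27L and 51.1% for RPS27, and 48.5% for RPL26L1 and 45.2% for RPL26. Its part in these shares was not tested. RPL36AL made up between 97.5% and 98.4% of its pair in every library, beside the uncertain RPL36A.

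**Figure D3:**
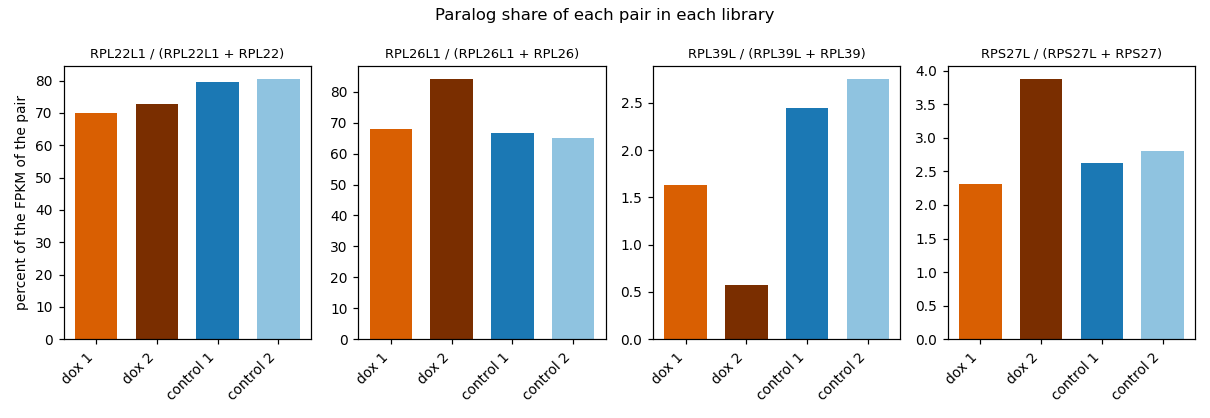
Share of the paralog in the summed FPKM of the paralog and its parent, in percent, per library, for 4 pairs. Both doxycycline libraries lie below both controls for RPL22L1 (69.9% and 72.8%, against 79.6% and 80.4%) and for RPL39L, while for RPL26L1 and RPS27L doxycycline replicate 2 stands apart.

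Within the family the differences in doxycycline replicate 2 went with GC content. The 83 genes had a GC content from 40.3% to 63.5%. It was pooled over the bases of all annotated transcripts of a gene, so it is not that of the principal mRNA alone. In doxycycline replicate 2 the 19 members with at least 55% GC had a median log2 difference of -0.73 from the controls, and the 21 members under 46% GC a median of 0.01. All genes tested had -0.48 and 0.23 in the same ranges. In doxycycline replicate 1 the medians were -0.07 and 0.06 for the members and -0.08 and -0.002 for all genes tested. Across the 83 genes, which share libraries and base composition, Pearson's r with GC content was -0.58 in doxycycline replicate 2, -0.24 in doxycycline replicate 1 and 0.10 for control replicate 1 minus control replicate 2. Not all members with at least 55% GC lay low in doxycycline replicate 2, as RPL3 had a difference of 0.17 and RPL13A of -0.11. RPL35, RPL8, RPS2, RPL36 and RPS15, each with at least 55% GC, had differences from -1.23 to -0.73 in that library. RPL26 and RPL39L lay lower still in that library, at -1.46 and -1.33, with 45.2% and 48.8% GC. The 12 genes on chromosome 19, the chromosome with the most members, had a median GC content of 57.1% and a median difference of -0.40 over both libraries. The ranges of GC content were set after the values were seen. After an adjustment for gene length and GC content over all genes, the SD of the members' differences was 0.24, against 0.28 before. The adjustment removes the GC trend over all genes by construction, where Pearson's r went from -0.32 to -0.00. A fall among the members was therefore partly fixed in advance. Pearson's r of the difference with GC content was after the adjustment -0.13 over the 83, against -0.53 before. It was 0.03 in the large subunit, against -0.41 before, and -0.42 in the small subunit, against -0.71 before. The adjusted medians were -0.10 in the large and -0.12 in the small subunit. Doxycycline replicate 2 also had the highest mitochondrial share, and the part of either in these differences was not tested.

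**Figure D4:**
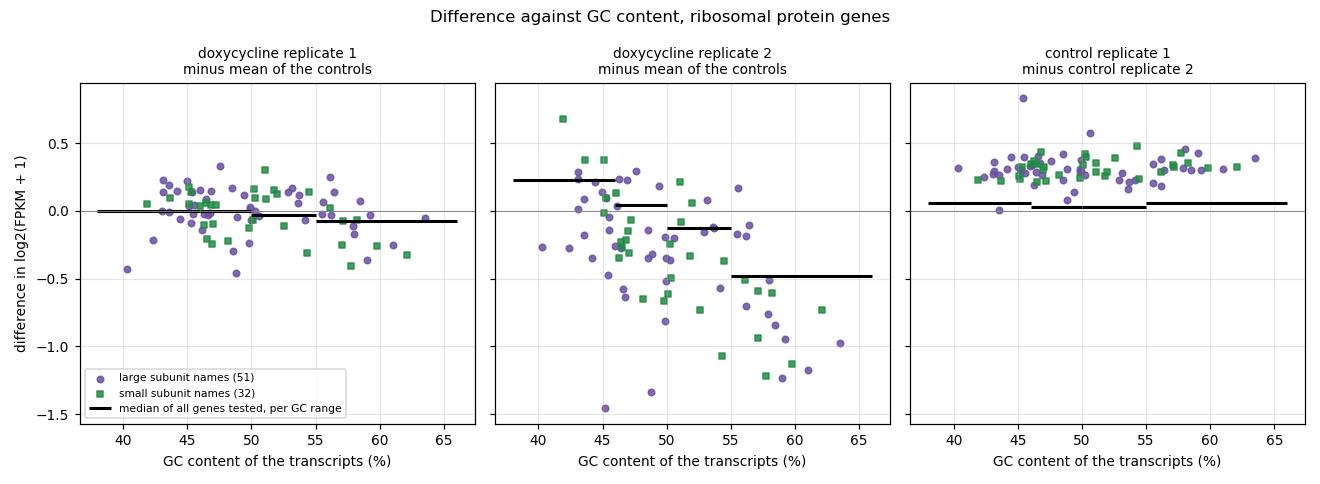
Difference in log2(FPKM + 1) against GC content for the 83 genes, in doxycycline replicate 1 and 2 relative to the mean of the controls, and in control replicate 1 relative to control replicate 2, with black lines for the medians of all genes tested per GC range. The slope is steep in doxycycline replicate 2, and the controls differ by about the same amount, a median of 0.31, at every GC content.

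Members with and without a pyrimidine run at the start had nearly the same median difference. The 42 tested members with such a run had a median log2 difference of -0.09, and the 24 without it also -0.09, with medians in doxycycline replicate 2 of -0.25 and -0.18. The 24 include members with a run that begins within 10 bases of the start, RPL4, RPL9 and RPS28 among them. The split therefore follows the annotated start and does not compare mRNAs with and without a TOP tract. RPL35, RPS21 and RPS24, printed above with long runs, had differences of -0.80, -0.69 and 0.28. RPS27L and RPL9, with no pyrimidine at the annotated start, had 0.37 and 0.26, and RPL39L, the lowest, had no start sequence.

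Other genes of the pathway were counted from lists chosen for their roles. Among 16 tested elongation factors and other mRNAs with a known TOP tract, 0 passed, 7 lay above both controls and 4 below (68.8% in all), with a median log2 difference of 0.16. Over all genes tested 24.3% lay above and 28.9% below (53.2% in all). EIF3H, an initiation factor subunit, stood at 60.8 and 72.0 FPKM with doxycycline and 48.7 and 43.8 FPKM in the controls (limma adjusted p = 0.289), and TPT1, a growth-associated protein, at 150.9 and 180.8 FPKM with doxycycline and 124 and 107.2 FPKM in the controls (limma adjusted p = 0.317). FAU and RACK1, subunit genes that the rule misses, overlapped between groups, with differences of -0.36 and -0.003.

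Regulators and partners also gave 0 calls over all genes, and their counts of separated groups lay near or under the 53.2% of all genes tested. Of 20 tested mTORC1 and LARP1 genes, 4 lay above both controls and 5 below (45% in all), and RPS6KB2, an S6 kinase, stood at 4.48 and 3.27 FPKM with doxycycline and 6.42 and 6.11 FPKM in the controls (limma adjusted p = 0.213). TIA1, which binds TOP mRNAs under starvation, had a difference of 0.43 (limma adjusted p = 0.331). Of 23 chaperones, importers and assembly partners, 3 lay above and 7 below (43.5% in all). Of these MDM2, the p53 ligase that free RPL5 and RPL11 bind, stood at 17.0 and 21.5 FPKM with doxycycline and 10.66 and 11.01 FPKM in the controls (difference 0.77, standard error 0.20, limma unadjusted p = 0.00912, adjusted p = 0.15). EFL1, a GTPase that releases the joining block EIF6, stood at 10.5 and 11.7 FPKM with doxycycline and 7.34 and 7.11 FPKM in the controls (limma adjusted p = 0.196). Of 9 transcription factors reported at ribosomal protein promoters, 1 lay above and 3 below (44.4% in all), with E2F1, a cell cycle regulator, at 8.18 and 4.23 FPKM with doxycycline and 20.5 and 17.7 FPKM in the controls (limma adjusted p = 0.0819) and YY1 at a difference of -0.51 (limma adjusted p = 0.319). E2F1 passed with doxycycline replicate 1 or replicate 2 left out, under a filter of 5 FPKM, with the replicate block (limma adjusted p = 0.00518) and once length and GC content were adjusted for. Over all alternatives its adjusted p ran from 5.26e-05 to 0.76. Of 11 genes of ribosome quality control and hibernation, 2 lay above and 4 below (54.5% in all). SERBP1, which occupies idle ribosomes, stood at 49.8 and 59.6 FPKM with doxycycline and 97.9 and 82.3 FPKM in the controls (limma adjusted p = 0.204). ZNF598, which marks collided ribosomes, stood at 10.9 and 5.56 FPKM with doxycycline and 14.9 and 14.3 FPKM in the controls (limma adjusted p = 0.239). With doxycycline replicate 1 left out, MDM2 (limma adjusted p = 0.00355), EFL1, RPS6KB2, TIA1, EIF3H, FAU and ZNF598 passed too. With doxycycline replicate 2 left out, MDM2 (limma adjusted p = 0.0493), YY1 and SERBP1 did. All genes tested were called at 12.9% higher and 19.9% lower without doxycycline replicate 1, and at 4.95% and 8.39% without doxycycline replicate 2. Over all alternatives the adjusted p of MDM2 ran from 0.00355 to 0.948 (limma).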

How the data were processed

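Each of the 4 libraries came as 1 table of FPKM values for 58735 genes, deposited by the authors and named so in the file headers. The submitters' processing notes list HISAT2 (2.0.5), limma and featureCounts (1.5.0-p3) without role or order. Build, strandedness and filters are not given in the sources used here. Gene coordinates and lengths of all 58735 genes equal those of GENCODE 29 on GRCh38, and length is the merged length of all exons. Without strand information, reads of overlapping genes cannot be told apart. Multiplied by length, the deposited FPKM came out as whole numbers of reads in each library (100% within 0.02 reads), which gave the depth. The library size behind the FPKM was 107.5% and 97.6% of these totals with doxycycline and 97.2% and 101% in the controls.

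The 12029 genes whose mean reached 1 FPKM were tested with limma-trend (limma 3.58.1, R 4.3.3) on log2(FPKM + 1), two-sided, with 2 residual degrees of freedom, Benjamini-Hochberg adjustment and a threshold of 0.05. The scale understates changes of low genes. The steps were run on simulated reads with known changes, as a check of the code and not of the power in these libraries. Members and lists were chosen with earlier results of these data known. The genes named are the paralog pairs, the 3 highest and 3 lowest differences and the 2 highest and 2 lowest levels per subunit, members with roles outside the ribosome, and the 2 lowest p of each list, and a few genes that this takes are not reported here. Alternatives were another pseudocount, filters, scalings, limma-voom, a replicate block and leaving out each library. Python 3.11.15 and pandas 2.3.3 were used.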

Additional observations from a re-analysis of the deposited data

How the results depend on the processing

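No ribosomal protein gene passed under any of the 16 alternatives except leaving out doxycycline replicate 1. When each library was left out in turn, members called ranged from 0 to 10 (large subunit, lower), 0 to 6 (small subunit, lower) and 0 to 1 (small subunit, higher), and genes called from 0 to 1553 higher and from 0 to 2389 lower. Genes called higher and lower numbered 42 and 219 under a filter of 5 FPKM, 38 and 204 over protein-coding genes alone, 64 and 278 after the length and GC adjustment, and 17 and 104 with limma-voom on median-of-ratios sizes, against 0 and 0. The replicate numbers are not said to pair libraries. Their deviations correlated at 0.207 over genes, and with the replicate block 202 genes were higher and 582 lower, with 0 members among them. The large-subunit median of -0.10 was 0.047 under quantile normalization and ranged from -0.252 to 0.056 when a library was left out. The small-subunit median ranged from -0.344 to 0.027. The paralog share, doxycycline minus control in percentage points, was -11.19 in place of -8.64 for RPL22L1, -0.75 in place of -1.49 for RPL39L and 1.96 in place of 0.37 for RPS27L on recovered reads, with lengths no longer divided out. For 24 named genes 360 of 382 recomputed differences kept direction and call. All of these genes were uncalled in the main fit, so an unchanged call means that they stayed uncalled. Depth limits RPL39L most, at 13 to 57 reads.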
